A study of Mus musculus with 4 samples.

Results

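The common gamma chain cytokine receptors are a family of surface receptors that share 1 signalling subunit. Their 8 genes, *Il2ra*, *Il2rb*, *Il2rg*, *Il7r*, *Il15ra*, *Il4ra*, *Il21r* and *Il9r*, were chosen by symbol and make up 8 of the 17559 genes listed in the files. RNA-seq measured them in CD8+ T cells from C57BL/6 mice of the OT-I genotype, whose transgenic T cell receptor recognises a peptide of ovalbumin. The tissue is labelled LN. All cells, controls included, had been selected magnetically to a purity above 95% and activated for 2 d on plates coated with antibodies, anti-CD28 at 2 µg/ml and anti-CD3 at 1 µg/ml. IL-2 at 10 ng/ml was present during that time and for 2 d more without the antibodies, so every library comes from cells grown in a ligand of this family. The last step was 12 h with a control treatment (2 libraries, control 1 and 2) or with 1 mM NaBu (2 libraries, NaBu 1 and 2). NaBu is the usual short form of sodium butyrate, which is known to inhibit histone deacetylases. The labels give no age, do not say what the control treatment contained and do not say whether the libraries came from separate cultures or animals. The p-values therefore measure only the spread between these libraries, which may be technical.

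Each receptor of the family pairs the common gamma chain, the product of *Il2rg*, with a chain of its own. The IL-7, IL-4, IL-21 and IL-9 receptors each add 1 private chain. The IL-2 and IL-15 receptors share the beta chain of *Il2rb* and differ in their alpha chains, *Il2ra* (CD25) and *Il15ra*. Ligand binding brings the kinases JAK1 and JAK3 together, and these activate STAT factors, mainly STAT5 for IL-2, IL-7, IL-9 and IL-15, STAT6 for IL-4 and STAT3 for IL-21. In CD8+ T cells, IL-2 drives expansion and effector differentiation, whereas IL-7 and IL-15 keep naive and memory cells alive. Activation is known to raise *Il2ra* and to lower *Il7r*, and CD8+ T cells that keep *Il7r* are known as memory precursors.

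Expected counts, which are estimated numbers of reads per gene, summed to between 19857701 and 20548571 per library. Genes at 1 FPKM or more (fragments per kilobase of transcript, scaled to the depth of the library) numbered between 10627 and 11250. Replicates differed by more than counting error, since chi-square divided by its degrees of freedom, over genes, was 7.65 for the controls and 2.85 for the NaBu libraries. The 7 genes listed as CD8+ T cell markers were *Cd8a*, *Cd8b1*, *Cd3d*, *Cd3e*, *Cd3g*, *Cd2* and *Ptprc*, not all of which are particular to these cells. They were present in all libraries, with a summed FPKM of 1732.44 to 1734.41 in the controls and 1492.99 to 1499.38 in NaBu. Of these markers 6 fell and 1 rose by the test used below, which called 34.1% of all tested genes lower and 34.5% higher. The marker counts that follow are to be read against the same shares. In bulk RNA, fewer cells of a type and less RNA per cell cannot be told apart. Most markers of other cells that carry these receptors were low, but *Cd68*, *Zbtb7b*, *Gata3* and *Klrb1c* stood at 4.94 FPKM or more in every library. The 12 myeloid and dendritic cell markers summed to between 15.05 and 16.62 FPKM in the controls and between 38.54 and 40.53 in NaBu. Of the 5 that were tested, 4 rose and 1 fell (*Xcr1*). *Itgam* rose from 0.45 FPKM in both controls to 4.83 and 3.79 in NaBu, and *Mpeg1* from 0.2 and 0.39 to 1.96 and 1.86. These are log2 fold changes of 3.16 and 2.59. Most of the sum came from *Cd68*, and the defining genes *Csf1r* and *Lyz2* were listed in no library. The 6 B cell markers summed to between 4.07 and 5.73 FPKM in the controls and between 2.03 and 2.72 in NaBu. Most of that came from *Cd79b*, the 1 tested gene of this list. It was called lower, from 5.45 and 3.86 FPKM to 2.43 and 1.88. *Ms4a1* and *Pax5* were listed in no library. The 5 CD4+ and regulatory T cell markers summed to between 20.86 and 28.2 FPKM, most of it from *Zbtb7b*. *Foxp3* was at 0.24 FPKM or less. *Cd4* was low but rose, from 0.02 and 0.03 FPKM in the controls to 0.66 and 0.65 in NaBu. Of the 4 tested members of this list 2 rose and 1 fell. The 6 NK and innate lymphoid markers summed to between 23.11 and 27.92 FPKM, most of it from *Gata3* and *Klrb1c*. Of the 4 tested members of this list 2 were called lower, *Klrb1c* among them, and *Gata3* was not called. The 7 mast cell and granulocyte markers summed to between 2.84 and 3.3 FPKM, with 1 of 3 tested members higher and 1 lower.

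Promoter sequence was taken from RefSeq (GRCm38.p6, the assembly also called mm10) for the 7 members that its table held, all but *Il2rb*. Each window is the 250 bases before a RefSeq start. For *Il7r*, *Il15ra*, *Il21r* and *Il9r* that start lies inside the gene bounds given below, so their windows reach into the gene. The *Il9r* window and 1 of the 2 for *Il15ra* lie wholly within those bounds. The stretches below are those parts of the windows of 5 of the more highly expressed members that lie outside every annotated exon and outside the gene itself. They are shown because the members differ in base composition as well as in direction of change. Capitals mark matches to the motifs named after them.
Il2ra (chr2:11642542-11642791, plus strand): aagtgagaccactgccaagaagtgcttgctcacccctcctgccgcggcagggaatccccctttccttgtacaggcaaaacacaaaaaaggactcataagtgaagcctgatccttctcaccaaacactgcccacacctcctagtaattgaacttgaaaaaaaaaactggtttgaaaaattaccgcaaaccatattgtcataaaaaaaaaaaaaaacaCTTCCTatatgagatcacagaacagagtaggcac
Il2rg (chrX:101268256-101268505, minus strand): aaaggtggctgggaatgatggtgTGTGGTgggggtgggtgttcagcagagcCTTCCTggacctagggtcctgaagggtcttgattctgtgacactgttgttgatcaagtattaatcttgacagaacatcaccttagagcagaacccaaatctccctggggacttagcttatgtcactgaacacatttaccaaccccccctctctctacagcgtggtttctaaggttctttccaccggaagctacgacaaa
Il7r (chr15:9529942-9530040, minus strand): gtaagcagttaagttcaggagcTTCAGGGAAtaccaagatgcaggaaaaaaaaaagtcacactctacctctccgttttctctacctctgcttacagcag
Il4ra (chr7:125552021-125552119, plus strand): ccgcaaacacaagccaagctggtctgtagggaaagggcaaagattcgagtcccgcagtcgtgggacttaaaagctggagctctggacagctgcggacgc
Il21r (chr7:125603179-125603251, plus strand): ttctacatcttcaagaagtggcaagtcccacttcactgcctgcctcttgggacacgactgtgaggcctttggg
The full windows of 250 bases held 1 CG dinucleotide for *Il7r*, 3 each for *Il2ra* and *Il2rg*, 4 for *Il21r* and 17 for *Il4ra*, against a median of 6 over all 32851 windows. The STAT motif TTCNNNGAA was searched on both strands and matched in the *Il7r* window (TTCAGGGAA, 142 to 134 bases before the start) and in no other member window, while 7.02% of all windows held it. The same STAT motif with a spacer of 4 bases in place of 3 matched in no member window and in 5.85% of all windows. The forkhead motif TGTTTAC matched only for *Il21r* among the members, and in 3.17% of all windows. The *Il21r* match lies 38 to 32 bases before the start, inside the gene bounds and outside the printed stretch. It overlaps there with a match to the Runx motif TGTGGT. That motif was also found for *Il2rg* and *Il9r*, and in 14.05% of all windows. The Ets motif AGGAAG matched for *Il2ra*, *Il2rg*, *Il7r*, *Il15ra* and *Il4ra*, and in 29.48% of all windows. The matches of *Il7r* and *Il4ra* lie outside the printed stretches. A match is a description of the letters only, and RefSeq starts need not be the starts used in these cells.

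Transcripts of this family were abundant, apart from *Il15ra* and *Il9r*. On the FPKM scale, which allows for transcript length, the order in the controls was *Il2rb*, *Il2rg*, *Il2ra*, *Il4ra*, *Il21r*, *Il7r*, *Il15ra* and *Il9r*. The neighbours *Il4ra* (61.88 and 65.48 FPKM) and *Il21r* (58.83 and 63.3) overlapped there, and no other pair of neighbours did. In NaBu *Il21r* (131.72 and 132.6 FPKM) stood above *Il4ra* (118.0 and 121.6), and the rest of the order was as in the controls. *Il2rb* ranked between 101 and 132 among all genes by FPKM, *Il2rg* between 157 and 178, and *Il2ra* between 227 and 337. The 3 IL-2 receptor chains together made up most of the family's summed FPKM, which was 1347.13 and 1312.84 in the controls and 1666.46 and 1682.57 in NaBu. The share of *Il2rg* in that sum was 30.6% and 32.8% in the controls and 21.3% and 21.1% in NaBu, and the share of *Il7r* was 2.67% and 3.09% against 1.01% and 1.04%.

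**Figure D1:**
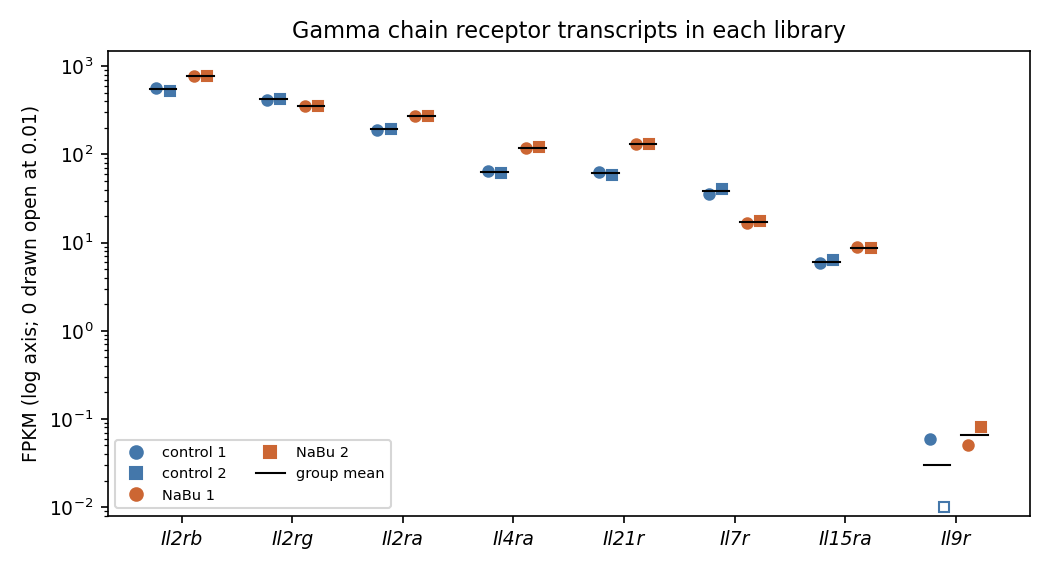
FPKM of the 8 receptor genes in each library, on a log axis, with circles for replicate 1, squares for replicate 2 and bars for group means. *Il2rb*, *Il2rg* and *Il2ra* lie at 190.96 FPKM or more in all libraries and *Il9r* at or below 0.08, and *Il2rg* and *Il7r* are the only 2 genes whose NaBu libraries both lie below both controls.

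Libraries with and without NaBu were compared to see how butyrate moved these transcripts in activated CD8+ T cells. Of the 8 members 7 passed the filter on low counts and were tested with edgeR's quasi-likelihood test over 12943 genes, with a call at a Benjamini-Hochberg adjusted p of 0.05. All 7 were called, 5 higher and 2 lower, where 68.6% of all tested genes were called, 34.5% higher and 34.1% lower. With so many genes called, a call by itself says little about the family. The FPKM values of the 2 groups did not overlap for any of the 7, as for 84.0% of all tested genes. The median log2 fold change of the 7 was 0.40, against 0.005 over all tested genes. Scaled by library totals alone, the median over all tested genes was 0.10, and the middle member of the 7, *Il2rb*, was at 0.50. Against a fold of 1.5 as the null (edgeR's glmTreat), 3 of the 7 were called, *Il21r* and *Il4ra* higher and *Il7r* lower, where 29.2% of all tested genes were, 17.1% higher and 12.1% lower. A change larger in size than that of *Il7r* was seen in 17.5% of tested genes, and one larger than that of *Il2rg* in 61.1%.

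**Figure D2:**
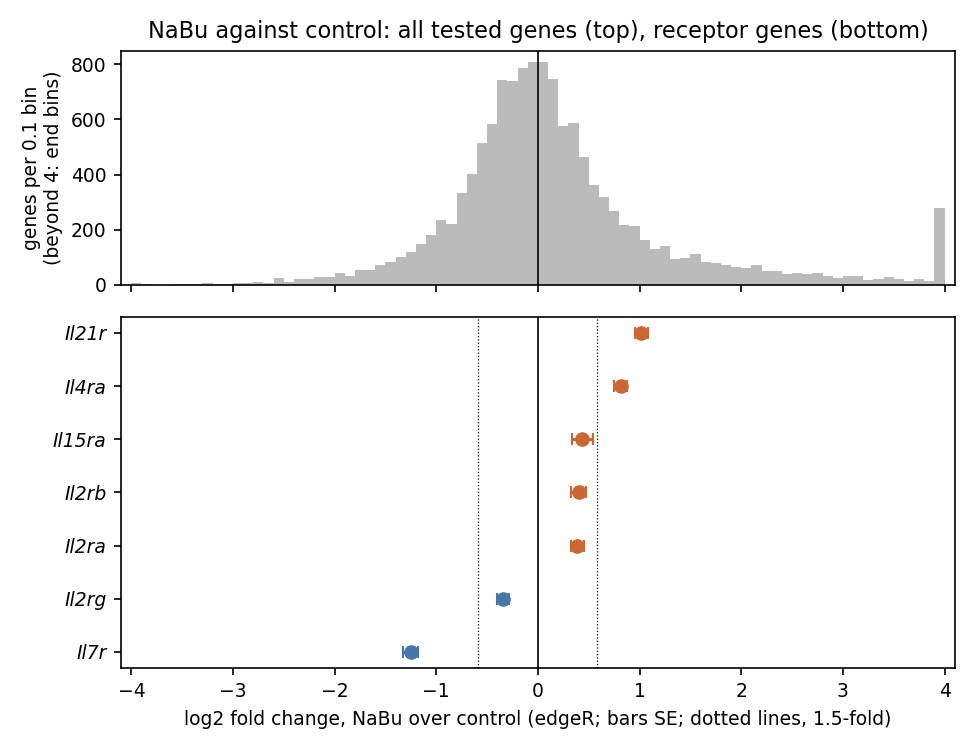
Log2 fold changes of NaBu over control by edgeR, as a histogram of the 12943 tested genes (top; values beyond 4 are in the end bins) and for the 7 tested receptor genes with SE bars (bottom; dotted lines mark 1.5-fold). *Il7r* at -1.25 and *Il21r* at 1.02 are the outermost members, and the IL-2 receptor chains lie within the dotted lines.

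The signalling chains of the IL-2 receptor moved apart. *Il2rg* (gene 16186, chromosome X, 101264385 to 101268255), the subunit that all these receptors use, was at 411.64 and 430.97 FPKM in the controls and at 354.49 and 355.65 in NaBu. Both NaBu libraries were below both controls, and the log2 fold change was -0.34 ± 0.06 (SE; edgeR adjusted p = 0.00058). *Il2rb* (gene 16185, chromosome 15, 78479256 to 78511621), the beta chain shared by the IL-2 and IL-15 receptors, was at 573.86 and 517.95 FPKM in the controls and at 765.94 and 776.15 in NaBu. Its controls were further apart (SD 39.5, n = 2) than its NaBu libraries (SD 7.22), and all NaBu values were higher. The log2 fold change was 0.40 ± 0.07 (SE; edgeR adjusted p = 0.000598). *Il2ra* (gene 16184, chromosome 2, 11642792 to 11693194) encodes CD25, the alpha chain that makes the IL-2 receptor bind with high affinity. Its values were 190.96 and 196.36 FPKM in the controls and 269.71 and 271.06 in NaBu. It rose by a log2 fold change of 0.39 ± 0.06 (SE; edgeR adjusted p = 0.000299), close in size to that of *Il2rb*. None of the 3 changes was called against a fold of 1.5 (glmTreat adjusted p = 1 for each). The 6 of 7 CD8+ T cell markers that fell moved the same way as *Il2rg* and *Il7r*, and their part in these falls was not tested. Against a fold of 1.5, 2 of those markers were called lower. In the GENCODE annotation *Il2ra* and *Il2rg* each overlap a gene on the same strand that the files do not list (*Gm37881* and *Gm20489*), so some reads could belong to those.

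*Il15ra* (gene 16169, chromosome 2, 11705172 to 11733985), which encodes the chain that binds IL-15 and can present it to neighbouring cells, lies beside *Il2ra* and was about as much changed, at a far lower level. It was at 5.93 and 6.28 FPKM in the controls and at 8.81 and 8.79 in NaBu and rested on expected counts of at most 290.0 in any library. The groups did not overlap. Its log2 fold change was 0.43 ± 0.10 (SE; edgeR adjusted p = 0.00325). DESeq2 gave 0.43 with an adjusted p of 0.0517, so that this call depended on the test. The files count 9 transcripts for this gene as 1. Myeloid and dendritic cells also carry *Il15ra*, and the sum of their markers was higher in NaBu, as given above. Their part in this rise was not tested.

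*Il7r* (gene 16197, chromosome 15, 9506159 to 9529941), which encodes the alpha chain of the IL-7 receptor, had the largest fall of the family. It was at 35.9 and 40.57 FPKM in the controls and at 16.86 and 17.52 in NaBu, or 38.2 ± 3.30 against 17.2 ± 0.467 (SD, n = 2 per group). Every NaBu value was below every control value, and the log2 fold change was -1.25 ± 0.07 (SE; edgeR adjusted p = 1.45e-07). The fall exceeded 1.5-fold (glmTreat adjusted p = 4.35e-06). The *Il7r* chain also pairs with the product of *Crlf2* to form the receptor for TSLP. *Crlf2* fell in the same libraries, from 32.21 and 30.69 FPKM to 8.8 and 11.09, a log2 fold change of -1.76 ± 0.10 (SE; edgeR adjusted p = 1.49e-07). Both chains of the TSLP receptor were thus lower, while *Tslp* itself was at 0.04 FPKM or less in every library.

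The private chains for IL-4 and IL-21 rose most. *Il4ra* (gene 16190, chromosome 7, 125552271 to 125579474), whose chain docks STAT6, went from 65.48 and 61.88 FPKM to 118.0 and 121.6. That is a log2 fold change of 0.82 ± 0.06 (SE; edgeR adjusted p = 1.09e-06), above 1.5-fold (glmTreat adjusted p = 0.00207). *Il21r* (gene 60504, chromosome 7, 125603252 to 125634397), whose chain signals mainly through STAT3, lies next to it on the same chromosome. It went from 63.3 and 58.83 FPKM to 132.6 and 131.72, a log2 fold change of 1.02 ± 0.06 (SE; edgeR adjusted p = 1.94e-07, glmTreat adjusted p = 2.67e-05). For both genes every NaBu library lay above every control. B cells and myeloid cells also carry *Il4ra*. The sum of B cell markers was lower in NaBu and that of myeloid and dendritic cell markers higher, as given above, and their part in these rises was not tested. An antisense gene, *Gm44876*, overlaps *Il4ra* in the GENCODE annotation. The files do not list it, and no source used here says whether the libraries kept strand, so reads of the pair could not be told apart. Of the other receptor chains for ligands of *Il4ra*, *Il13ra1* was at 0.16 FPKM or less in every library and *Il13ra2* was listed in none.

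*Il9r* (gene 16199, chromosome 11, 32187544 to 32205283), which encodes the IL-9 receptor chain, was close to absent. Its expected counts were 4.0 and 0.0 in the controls and 3.0 and 5.0 in NaBu, too few for the test. As CPM (counts scaled to the library total) these are 0.197 (exact binomial 95% interval 0.0536 to 0.503), 0.0 (upper limit 0.1795, or 0.146 by a floor of 3 counts), 0.151 (0.0312 to 0.442) and 0.252 (0.0818 to 0.588). These intervals cover counting error only. They overlap, and no difference was detectable at this depth.

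Relative to the common chain, 5 of the other 6 chains that were tested stood higher in NaBu, all but *Il7r*. These are the 5 members called higher above, so the count adds nothing to those calls. Since *Il2rg* itself fell (log2 fold change -0.34), a gene at the median of all tested genes (0.005) would also stand higher against it. *Il9r* had too few counts for a ratio. The FPKM ratio of *Il2ra* to *Il2rg* was 0.464 and 0.456 in the controls and 0.761 and 0.762 in NaBu. The ratio of *Il2rb* to *Il2rg*, added after the data were seen, was 1.39 and 1.20 against 2.16 and 2.18, so that *Il2rb* exceeded *Il2rg* in every library. For *Il4ra* the ratio was 0.159 and 0.144 against 0.3329 and 0.342, and for *Il21r* it was 0.154 and 0.137 against 0.374 and 0.370. For *Il15ra* it was 0.0144 and 0.0146 against 0.0249 and 0.0247. The ratio for *Il7r* went the other way, from 0.0872 and 0.0941 to 0.0476 and 0.0493. By contrast, *Il2ra* over *Il2rb* was 0.3328 and 0.379 in the controls and 0.352 and 0.349 in NaBu, inside the range of the controls, and *Il15ra* over *Il2rb* was also inside it. These are ratios of transcript levels and not of protein at the surface. They are given as values without a test. An exact permutation test of 2 libraries against 2 cannot give a two-sided p below 0.33.

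**Figure D3:**
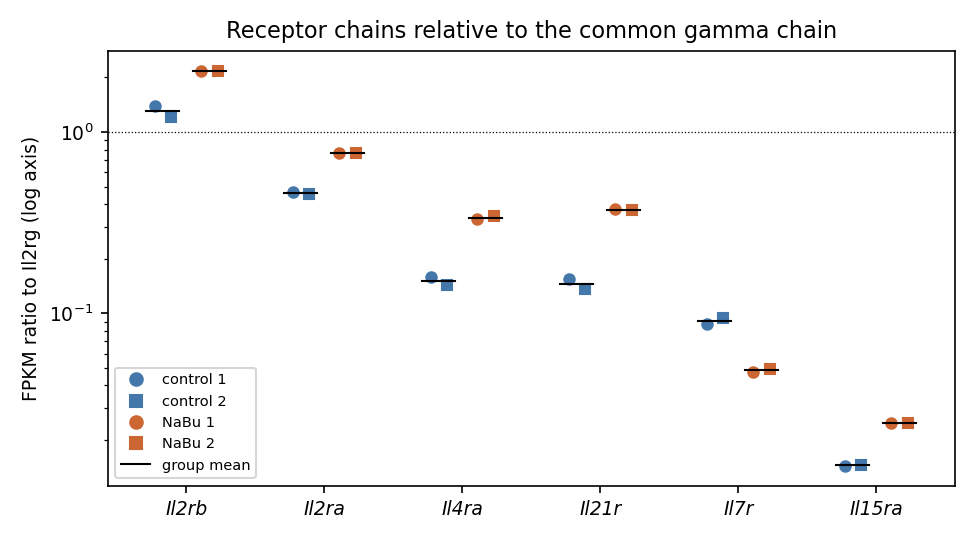
FPKM of 6 receptor chains divided by that of *Il2rg* in the same library, on a log axis, with circles and squares for replicates 1 and 2, bars for group means and a dotted line at equal levels. The NaBu libraries lie above the controls for 5 chains and below them for *Il7r*, and only *Il2rb* lies above the line.

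Apart from *Il13*, the cytokines that bind these receptors were near absent. *Il2*, *Il7*, *Il15* and *Il21* were at 0.2 FPKM or less in every library, *Il9* was listed in none, and *Il4* was between 0.25 and 0.76 FPKM. The sole tested gene among the 8 ligands was *Il13*, a type 2 cytokine that binds *Il4ra* together with *Il13ra1*. It rose from 0.86 and 0.69 FPKM to 5.11 and 4.98, a log2 fold change of 2.60 ± 0.22 (SE; edgeR adjusted p = 1.81e-06).

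Among 44 tested genes of the pathway that are no members, in 7 lists, 23 were called higher and 11 lower, to be read against the 34.5% and 34.1% of all tested genes. The number called lower was 7 without NaBu 2, and 16 without control 2 as well as with the trend on GC content removed. The counts of single lists given from here on are to be read against the same shares of all tested genes. The kinases and STAT factors below the receptors were divided, with 3 of 6 called higher and 2 lower and a median log2 fold change of 0.22. *Jak1*, the kinase bound to the private chains, rose from 125.16 and 126.03 FPKM to 199.3 and 195.42 (log2 fold change 0.56 ± 0.06, SE). *Jak3*, the kinase bound to the gamma chain, was at 145.64 and 112.85 FPKM in the controls and 121.74 and 135.18 in NaBu. Its groups overlapped and it was not called (edgeR adjusted p = 0.384). Without control 2 *Jak3* was called lower (log2 fold change -0.28, edgeR adjusted p = 0.00671), and without control 1 it was 0.08 (edgeR adjusted p = 0.305). With the trend on GC content removed and all 4 libraries it was also called lower (-0.41, edgeR adjusted p = 8.51e-05), and on log2(FPKM + 1) it was 0.001 (limma adjusted p = 0.995). *Stat3*, the factor of IL-21 signals, rose like *Il21r*, from 55.95 and 53.27 FPKM to 120.59 and 118.59, with a log2 fold change of 1.03 ± 0.06 (SE). *Stat6*, the factor of IL-4 signals, fell while *Il4ra* rose, from 57.24 and 52.87 FPKM to 38.38 and 39.29 (log2 fold change -0.60 ± 0.06, SE). *Stat5a* rose, from 12.02 and 11.4 FPKM to 19.75 and 20.14. *Stat5b*, the more abundant STAT5 gene, was at 28.11 and 24.54 FPKM in the controls and 24.06 and 24.79 in NaBu, with a log2 fold change of -0.19 ± 0.07 (SE). Its call (edgeR adjusted p = 0.0373) was lost in 11 of 16 alternatives, among them the fits without control 1 (0.154), NaBu 1 (0.235) or NaBu 2 (0.15), while without control 2 *Stat5b* was at -0.29 (edgeR adjusted p = 0.00192).

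Feedback inhibitors numbered 7, of which 4 rose and 1 fell. Their median log2 fold change was 0.44. *Socs3*, a suppressor induced by STAT3, went from 6.32 and 5.39 FPKM to 31.49 and 32.46, a log2 fold change of 2.35 ± 0.09 (SE; edgeR adjusted p = 7.57e-09). *Socs1*, a direct inhibitor of JAK kinases, went from 104.69 and 87.9 FPKM to 236.34 and 239.57 (log2 fold change 1.20 ± 0.08, SE). *Ptpn1*, a tyrosine phosphatase gene, rose from 25.97 and 24.84 FPKM to 69.55 and 67.8, and *Socs2* from 26.49 and 28.77 to 40.31 and 40.02. *Cish*, a textbook STAT5 target that is induced by IL-2, was at 86.99 and 71.95 FPKM in the controls and 82.37 and 84.51 in NaBu. The NaBu values lay inside the range of the controls, and its log2 fold change was -0.03 ± 0.08 (SE; edgeR adjusted p = 0.726), or 0.06 on library totals. Without control 2 it was called lower (-0.17, edgeR adjusted p = 0.0174), and without control 1 it was 0.10 (edgeR adjusted p = 0.107). With the trend on GC content removed *Cish* was called lower too (-0.14, edgeR adjusted p = 0.0305). *Ptpn2* fell by 0.32 on the log2 scale, a call that was lost without NaBu 2 (edgeR adjusted p = 0.0733). *Ptpn6* was not called (log2 fold change 0.13, edgeR adjusted p = 0.0725), though it was called higher on library totals (0.23, adjusted p = 0.00585).

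The test called 68.6% of all tested genes, 34.5% higher and 34.1% lower. Of 9 survival and growth genes that these cytokines are known to induce, 6 were called higher and the other 3 were not called, with a median log2 fold change of 0.42. By edgeR 0 were called lower, while 1 of the 9 had a lower value at an unadjusted p under 0.05, *Ccnd3*, encoding cyclin D3 (-0.16; unadjusted p = 0.0408, adjusted p = 0.0587). DESeq2 (adjusted p = 0.0337) and limma-voom (adjusted p = 0.0499) called *Ccnd3* lower, as did edgeR without control 2 (adjusted p = 0.00579) or with the trend on GC content removed (adjusted p = 0.000134). *Osm*, a cytokine gene induced by STAT5, rose from 26.92 and 23.74 FPKM to 92.69 and 87.92 (log2 fold change 1.74 ± 0.07, SE). *Myc*, a growth regulator, rose from 104.72 and 93.34 FPKM to 182.4 and 179.2, and *Ccnd2*, encoding cyclin D2, from 150.2 and 160.44 to 269.81 and 269.03. The survival kinase gene *Pim2* rose from 147.98 and 136.09 FPKM to 226.52 and 221.09. *Mcl1*, which guards T cells from apoptosis, rose by a smaller amount, with a log2 fold change of 0.42 ± 0.06 (SE). *Bcl2*, the survival gene most tied to IL-7, was at 81.89 and 80.64 FPKM in the controls and 85.02 and 85.23 in NaBu. On the edgeR scale its log2 fold change was -0.11 ± 0.06 (SE; adjusted p = 0.124), on log2(FPKM + 1) it was 0.07, and without control 2 it was called lower (edgeR adjusted p = 0.0419). *Bcl2l1* was not called either (-0.11, edgeR adjusted p = 0.111), but was called lower with the trend on GC content removed (adjusted p = 0.0223). *Pim1* also rose, by a log2 fold change of 0.25, a call that was lost without NaBu 2 (edgeR adjusted p = 0.0932).

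The adaptor and PI3 kinase arm of the IL-2 receptor showed no common direction, with 2 of 8 genes higher, 3 lower and a median log2 fold change of -0.05. *Shc1*, an adaptor that binds the beta chain, fell from 33.36 and 32.33 FPKM to 19.23 and 18.58 (log2 fold change -0.88 ± 0.06, SE). *Grb2*, the adaptor that Shc recruits, rose from 59.13 and 60.0 FPKM to 106.32 and 102.86 (0.71 ± 0.06, SE). *Akt1*, a kinase downstream of PI3 kinase, fell from 114.6 and 112.19 FPKM to 86.92 and 87.66. *Ptpn11* rose with a log2 fold change of 0.35. *Pik3r1* fell by 0.21 on the log2 scale, which was lost without NaBu 1 (edgeR adjusted p = 0.0766) or NaBu 2 (0.122). *Gab2*, *Sos1* and *Pik3cd* were not called, with log2 fold changes of 0.32, 0.04 and -0.14 (edgeR adjusted p = 0.0502, 0.655 and 0.122). Without control 2 *Gab2* was called higher (edgeR adjusted p = 0.00529) and *Pik3cd* lower (0.00313).

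Among 12 transcription factors known to act on *Il7r*, *Il2rb* or *Il2ra*, 7 rose, 4 fell and 1 was not called, and their median log2 fold change was 0.55. Of all tested genes 34.5% were called higher and 34.1% lower. The factor not called was *Ets1*, at 85.66 and 86.42 FPKM in the controls and 102.14 and 100.68 in NaBu (log2 fold change 0.14, edgeR adjusted p = 0.0569). It was called higher in 10 of 16 alternatives, among them the fits without control 1 (edgeR adjusted p = 0.0443) or control 2 (0.0298). The median stood at 0.005 over all tested genes. *Foxo1*, a known activator of *Il7r*, rose while *Il7r* fell, from 20.98 and 19.54 FPKM to 64.25 and 63.76, a log2 fold change of 1.56 ± 0.06 (SE; edgeR adjusted p = 1.29e-08). *Gfi1*, a known repressor of *Il7r*, rose from 16.24 and 15.3 FPKM to 21.43 and 22.65 (log2 fold change 0.38 ± 0.07, SE). With the trend on GC content removed the rise of *Gfi1* was 0.14 (edgeR adjusted p = 0.0498). *Tbx21* and *Eomes*, T-box factors known to drive *Il2rb*, rose with log2 fold changes of 1.11 and 0.78, as did *Runx3* with 0.83 and *Foxo3* with 0.73. *Prdm1*, encoding Blimp-1, a known repressor of *Il2ra*, rose from 7.88 and 6.81 FPKM to 24.48 and 23.72. *Ikzf1*, encoding Ikaros, fell from 88.8 and 93.74 FPKM to 60.48 and 61.06. *Foxp1*, *Gabpa* and *Runx1* fell as well, with log2 fold changes of -0.43, -0.34 and -0.51. The call of *Gabpa* was lost in 5 of 16 alternatives. These are transcript levels, and whether the factors bound the receptor genes was not measured here.

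**Figure D4:**
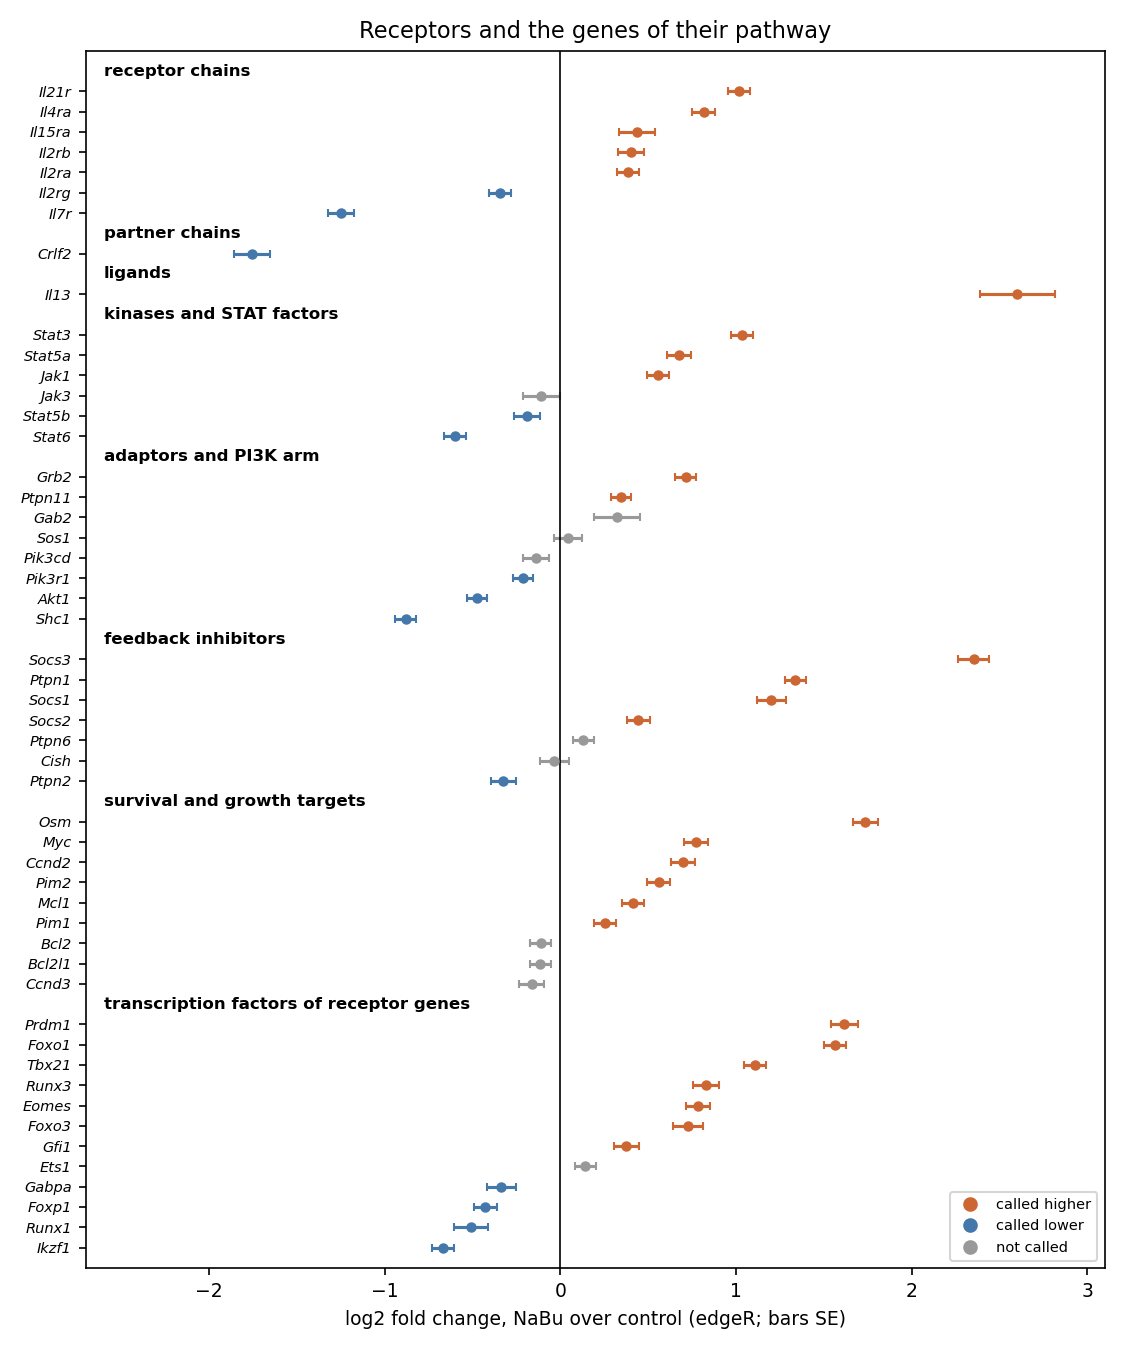
Log2 fold changes of NaBu over control by edgeR, with SE bars, for the tested receptor genes and the tested genes of 7 lists from their pathway, in orange where called higher, blue where called lower and grey where not called. *Socs3* and *Il13* lie furthest to the right, beyond every receptor gene, and *Crlf2* lies furthest to the left.

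The genes closest in pattern were sought for *Il21r*, *Il7r* and *Il4ra*, the 3 members changed by 1.5-fold or more, among 8045 genes with a mean of 5 FPKM or more. Likeness was the Euclidean distance between log2 CPM of the 4 libraries, each gene centred on its own mean. The nearest to *Il21r* were *Stx6*, *Stat3* and *Pgap2*, at distances of 0.028, 0.031 and 0.036. The nearest to *Il7r* were *Inpp4b*, *Cbfb* and *Cdc7*, at 0.027, 0.035 and 0.040. *Cbfb*, which encodes the partner of Runx factors, was at 78.77 and 90.17 FPKM in the controls and 36.97 and 37.67 in NaBu. The nearest to *Il4ra* were *Wdr7*, *Manba* and *Vhl*, at 0.029, 0.040 and 0.040. With 4 libraries many genes are this alike: 219, 175 and 356 genes lay within 0.2 of the 3 members, so closeness of pattern separates few genes.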

How the data were processed

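For each library, the deposited files hold expected counts, FPKM and transcript lengths of every gene, per the file headers. Reads were processed with Bowtie2 and RSEM on mm10, per the submitters' processing notes. Not given in the sources used here are the versions, the annotation release and whether libraries kept strand. The deposited expected counts are raw and were rounded to whole numbers before testing, and the deposited FPKM values are given as they stand. RSEM divides reads that match several genes, and the expected counts of *Il2ra*, *Il7r* and *Il21r* were not whole. A gene missing from a library's file was set to 0. Coordinates are from the RefSeq table of GRCm38.p6, which held 17518 of the 17559 gene identifiers.

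The test was edgeR's (4.0.16, R 4.3.3), using TMM factors (0.9658 to 1.035), filterByExpr (12943 genes kept, with 99.95% of counts) and the quasi-likelihood test between the 2 groups without covariates, adjusted by Benjamini-Hochberg over all tested genes. The SE is the absolute log2 fold change over the square root of F. The script was tested on simulated data with the means and depths of this comparison (12704 genes). It called in the right direction 81.2% of 80 genes set to a 1.5-fold change. The shares were 92.6% of 54 genes set to 2-fold and 100.0% of 60 set to 4-fold, and 10 of 12510 genes left as they were were called. Every simulated gene had the same dispersion in both groups. These rates need not hold for the real libraries, where replicate spread differed between the groups and 68.6% of tested genes were called. Lists are described by counts and medians only, and 1 gene of the kinase and STAT list is not reported here or counted in it.

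The members, gene lists and tests were chosen with earlier results of these data known. The genes open to naming were all 8 members, up to 6 called genes per list by size of change, uncalled genes of lists under 10 genes, marker genes that define a cell type, and the 3 nearest genes by pattern of each member changed 1.5-fold or more. *Ets1*, *Gfi1*, *Ikzf1*, *Foxp1*, *Gabpa* and *Runx1*, which fall outside this rule, were chosen after their values were seen. The alternatives were other normalizations (median of ratios, library totals), no filter or a minimum of 5 CPM in 2 libraries, DESeq2 1.42.0, limma-voom and limma 3.58.1 on log2(FPKM + 1) or log2(FPKM + 0.1), glmTreat, a replicate block and leaving out each library. Removal of the trend on GC content was added after seeing the data.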

Additional observations from a re-analysis of the deposited data

How the results depend on the processing

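The directions of the 7 tested receptor genes were the same in all 16 alternatives, and so were the calls of *Il7r*, *Il4ra* and *Il21r*. The log2 fold change ranged from -1.34 to -1.09 for *Il7r*, 0.76 to 0.91 for *Il4ra*, 0.96 to 1.11 for *Il21r* and -0.38 to -0.25 for *Il2rg*. With 1.5-fold as the null, 3 members, 15 of 44 tested pathway genes and 3779 of all genes were called, against 7, 34 and 8884. The calls of *Il2ra*, *Il2rb*, *Il2rg* and *Il15ra* were those lost, by the construction of that test. It called 1 gene of the kinases and STAT factors in place of 5, 2 adaptors in place of 5, 3 feedback inhibitors in place of 5, 2 survival and growth genes in place of 6 and 5 transcription factors in place of 11. DESeq2 called 6 members and left out *Il15ra* (adjusted p = 0.0517); the cause was not tested. Leaving out 1 library at a time, which assumes that the lone library varies like the other group, kept the direction of all 7 tested members. The 8 chain ratios then moved by less than their replicate spread. With 2 libraries per group that follows almost by construction, so it says nothing about how stable the ratios are. Without a low-count filter 2 partner chains were called against 1, *Crlf2* lower as before and *Il13ra1* higher, at 0.16 FPKM or less in every library. The counts of called CD4+, NK, B, mast cell and granulocyte markers changed by over 1.5 times in some alternatives, each list having 5 or fewer members in the files. Of the 7 CD8+ T cell markers, all called in the main fit, glmTreat called 2, both lower.

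With the trend on GC content removed, the log2 fold changes of *Pim2* (0.36), *Foxo3* (0.47), *Pik3r1* (-0.13) and *Ptpn2* (-0.18) shrank by over 1.5 times but stayed called. Pathway genes called numbered 29 to 42 when 1 library was left out and 41 with that trend removed.

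With the replicate number as a block, 8853 genes, 7 members and 35 pathway genes were called. The labels do not say that a number marks a shared culture, and the differences between replicates 1 and 2 did not correlate between the groups (r = -0.031 over genes), so the numbers were not taken as pairs. Depth limited *Il9r* and 7 of the 8 ligands, which had too few counts to be tested.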
